A study of Rattus norvegicus with 15 samples.

Results

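The miR-106b-25 cluster encodes 3 miRNAs, miR-106b, miR-93 and miR-25, inside the replication gene Mcm7. They were taken from the array by name and are 3 of the 350 rat miRNAs it measures. Levels were read in liver on 15 single-colour Agilent arrays, each loaded with RNA pooled from 4 rats. Rats had received ethanol chronically (EtOH) or, as pair-fed controls, carbohydrate in its place (CHO). Liver was collected at the operation and 1, 6, 12 or 24 h after partial hepatectomy (PHx), the surgical removal of part of the liver. Before PHx there were 3 EtOH pools and 4 CHO pools. After PHx there was 1 EtOH pool and 1 CHO pool at each of the 4 times, with no replicate pools. The sources used here do not give strain, age or sex. For 7 of the 8 pools the labels list the same 4 animals on 1 array before PHx and 1 array after it. An array before PHx for the EtOH pool of 24 h was not analysed here. The pools of 1 h and 6 h share 1 animal in each diet, so they are not fully independent.

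A miRNA guides a silencing complex to messenger RNAs that pair with its seed, bases 2 to 8 of the mature strand. Mcm7 is a subunit of the helicase that opens DNA at replication origins, and the miRNAs are made from its transcript. In human cells E2F transcription factors, which switch on genes for DNA synthesis, also drive MCM7 and this cluster. Human miR-106b and miR-93 repress the cell cycle inhibitor p21, and human miR-25 represses the inhibitor p57. After PHx, quiescent hepatocytes of the remaining liver re-enter the cell cycle and copy their DNA.

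The mature sequences are printed to show which miRNAs share a seed and so could pair with the same sites. They are RefSeq's for build GRCr8, 5′ to 3′, with the seed in capitals. All 3 members had an entry there. MiR-106b and miR-93 share 1 seed with miR-17 and miR-20a, which are encoded together with miR-92a on chromosome 15 (the miR-17 cluster).
miR-106b: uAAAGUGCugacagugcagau
miR-93: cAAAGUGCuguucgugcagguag
miR-17: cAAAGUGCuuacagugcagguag
miR-20a: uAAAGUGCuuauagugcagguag
MiR-25 has another seed, which it shares with miR-92a, also of the miR-17 cluster.
miR-25: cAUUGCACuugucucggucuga
miR-92a: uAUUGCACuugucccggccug
Counted from the 5′ end, miR-106b has the same base as miR-93 at 16 of 21 positions. It has the same base as miR-17 and as miR-20a at 18 of 21 positions each. MiR-93 is identical to miR-17 and to miR-20a at 19 of 23 positions each. MiR-25 is identical to miR-92a at 18 of 21 positions and to miR-106b at 5 of 21. Each seed is carried by 5 mature rat miRNAs in the RefSeq table. Such close sequences may share signal on an array, which was not tested.

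In GRCr8 the mature miRNAs lie on the minus strand at chr12:22157103-22157123 (miR-106b), chr12:22156894-22156916 (miR-93) and chr12:22156652-22156673 (miR-25). The 3 hairpins span 494 bases in all and lie inside Mcm7 (chr12:22155921-22163320, minus strand, 7400 bases). The RefSeq table does not give their place in an exon or an intron. The Mcm7 promoter window is printed because the cluster's members share this host gene. It is chr12:22163129-22163428 on the minus strand, 250 bases before to 50 bases after the start used by the RefSeq promoter table. The Mcm7 span above begins at 22163320 on this strand, inside the window and upstream of that start. Matches counted as before the start can therefore lie inside the gene span. Capitals mark matches on either strand to 4 spellings of the E2F motif (TTTCGCGC, TTTCCCGC, TTTGGCGC and TTTGCCGC) and to CCAAT, the motif of the factor NF-Y.
Mcm7 promoter: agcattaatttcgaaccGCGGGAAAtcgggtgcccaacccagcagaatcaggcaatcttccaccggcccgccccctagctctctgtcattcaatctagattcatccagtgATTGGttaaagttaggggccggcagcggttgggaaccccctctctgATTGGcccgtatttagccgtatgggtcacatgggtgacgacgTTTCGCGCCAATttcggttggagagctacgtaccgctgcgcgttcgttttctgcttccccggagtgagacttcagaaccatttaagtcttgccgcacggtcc
The window holds TTTCGCGC once, 52 bases before the start, and TTTCCCGC once on the other strand, 233 bases before it. The other 2 spellings have no match in these letters. CCAAT occurs 3 times, and its copy 45 bases before the start shares 1 base with TTTCGCGC. By these positions TTTCGCGC and the 3 CCAAT copies lie inside the Mcm7 span, and TTTCCCGC lies upstream of it. Among 33469 promoter windows of the table, 2.14% hold any of the 4 E2F spellings, 37.5% hold CCAAT and 0.777% hold both. These matches describe the letters of the window, and binding was not measured.

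Each array had 7000 non-control spots, and 108 to 131 miRNAs were detected per array. Probe signals were scaled to a common 75th percentile, which lay between 236.5 and 515.5 before scaling. The array of EtOH before PHx replicate 3 was the dimmest. Its spots also varied most, by a median coefficient of 36.6%, while this lay between 6.75% and 8.62% elsewhere. The hepatocyte markers miR-122, miR-192 and miR-194 were detected on 15 of 15 arrays. The arrays lay on 2 slides. Slide 1 held the pools of 1 h and 6 h with their arrays before PHx, and slide 2 held those of 12 h and 24 h.

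All 3 members were detected on 15 of 15 arrays, each by 2 probes. The brighter probe stands for the miRNA, and levels are its scaled signal on a linear scale. Over the 15 arrays the scaled signal of miR-106b lay between 29.8 and 52.5, with a median of 36.9. That of miR-93 lay between 54.5 and 96.8 with a median of 64.6, and that of miR-25 between 128 and 183 with a median of 149. Scaled signals were floored at 9.61, and no member's value came from the floor. For miR-106b 144 of 146 spots were well above background, for miR-93 146 of 148, and for miR-25 141 of 141. The exceptions were spots on EtOH before PHx replicate 3, where the members' spots varied by 54.4% to 64.1%. The other strands of the hairpins, miR-106b* and miR-25*, were detected on 0 of 15 arrays, with 0 spots well above background, and miR-93* was not analysed here.

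The comparison of 24 h with the livers before PHx asks which miRNAs stood higher or lower as regeneration went on. MiR-106b and miR-93 rose, and miR-25 did not pass the test. Each difference is a log2 difference of scaled signal averaged over both diets, fitted with limma on all 15 arrays. An adjusted p under 0.05 over the 134 tested miRNAs counts as passing. Among all tested miRNAs 11.9% passed as higher at 24 h, and 13.4% passed in either direction.

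MiR-106b had a scaled signal of 44.7 in the EtOH pool and 52.5 in the CHO pool at 24 h. Before PHx it was at 30.4, 32.1 and 29.8 in EtOH pools and at 37.0, 37.1, 35.2 and 41.8 in CHO pools. Both arrays of 24 h lay above all 7 arrays before PHx, an order that 13.4% of the tested miRNAs showed. Its log2 difference was 0.51 (SE 0.0798, 95% interval 0.33 to 0.68, limma adjusted p 0.00109). That is a 1.42-fold level at 24 h, with an interval of 1.26 to 1.61. With normexp, another background correction, the log2 difference was 0.15 (limma adjusted p 0.917), and blocking on matched pair-fed pools gave 0.33 (limma adjusted p 0.213).

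MiR-93 had a scaled signal of 71.7 in the EtOH pool and 96.8 in the CHO pool at 24 h. Before PHx it was at 55.3, 64.6 and 54.5 in EtOH pools and at 63.0, 60.0, 66.0 and 66.2 in CHO pools. Again both arrays of 24 h lay above all 7 arrays before PHx, the CHO pool by the wider margin. The log2 difference was 0.45 (SE 0.115, 95% interval 0.20 to 0.71, limma adjusted p 0.0211), or 1.37-fold with an interval of 1.15 to 1.63. Without the CHO array of 24 h it was 0.21 with a limma adjusted p of 0.511, so the call rested on that array. It was 0.21 with normexp (limma adjusted p 0.606), 0.25 with quantile normalization (limma adjusted p 0.482) and 0.25 in the authors' values (limma adjusted p 0.190).

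MiR-25 had a scaled signal of 151 in the EtOH pool and 173 in the CHO pool at 24 h. Before PHx it was at 134, 167 and 128 in EtOH pools and at 142, 133, 149 and 135 in CHO pools. The EtOH pool of 24 h lay below 1 of the 3 EtOH pools before PHx, so the groups overlap. The log2 difference was 0.20 (SE 0.123, 95% interval -0.07 to 0.47, limma adjusted p 0.364). The interval includes both no change and a rise of the size seen in miR-93. Among 134 tested miRNAs ordered by their log2 rise at 24 h, miR-106b came at place 11, miR-93 at 15 and miR-25 at 35.

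**Figure D1:**
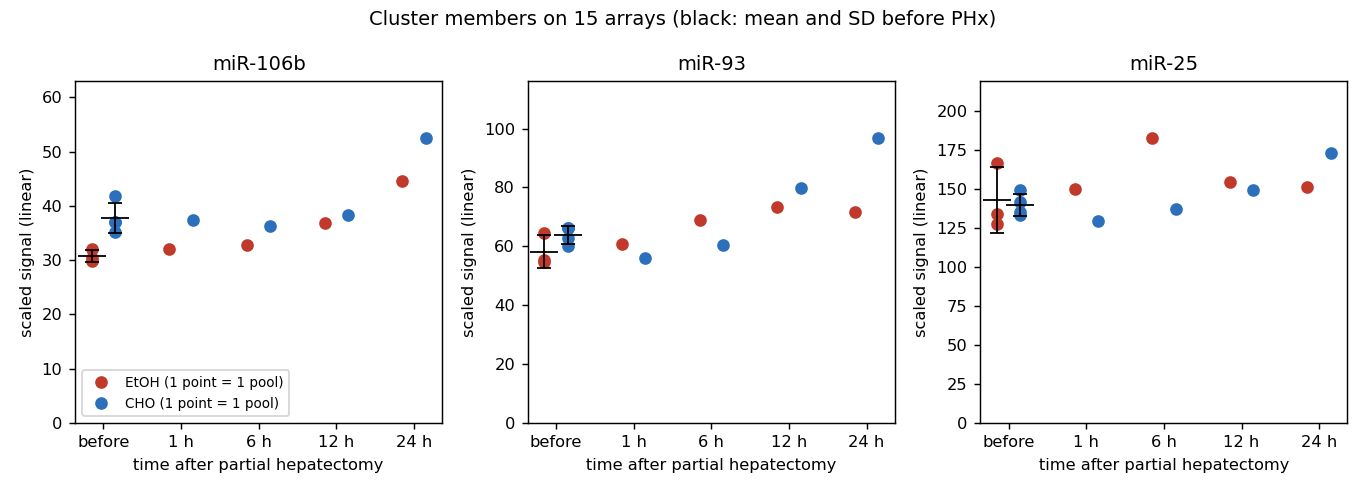
Scaled signal (linear axis from 0) of each member against time after PHx, with the times evenly spaced, EtOH pools in red and CHO pools in blue. Each point is 1 pool, and black bars give the mean and SD of the 3 EtOH and 4 CHO pools before PHx; the 24 h points of miR-106b (44.7 and 52.5) and miR-93 (71.7 and 96.8) stand above all points before PHx.

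On the second probe of each member the same 2 members passed at 24 h, with miR-93 ahead of miR-106b. By it, miR-106b rose by 0.45 on the log2 scale (limma adjusted p 0.00891) and miR-93 by 0.63 (limma adjusted p 0.00766), while miR-25 differed by 0.27 (limma adjusted p 0.334). On the second probe miR-93 read 32.2 in EtOH and 47.5 in CHO at 24 h. Before PHx this probe read between 22.2 and 29.3 over the 7 arrays. Both 24 h values lay above that range.

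The fit treats pools as independent, while the labels list the same animals before and after PHx. With the pool as a replicate block, which leaves 2 residual degrees of freedom, the 24 h difference of miR-106b was 0.38 (limma adjusted p 0.346). That of miR-93 was 0.64 (limma adjusted p 0.149) and that of miR-25 was 0.47 (limma adjusted p 0.274). All 3 differences were positive, and 0 members passed. Within slide 2, which also leaves 2 residual degrees of freedom, the differences were 0.52, 0.47 and 0.27 for miR-106b, miR-93 and miR-25, with adjusted p of 0.0723, 0.0723 and 0.268 by limma.

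The 7 pools with both arrays show the change inside the same 4 animals, between liver taken at the operation and liver taken later. No sham-operated group is among the arrays, so effects of surgery or of the piece of liver sampled cannot be told apart from time. In the CHO pool of 24 h, miR-106b was 0.33 log2 units above its own array before PHx, miR-93 was 0.55 above and miR-25 was 0.36 above. The array of these animals before PHx read the highest miR-106b of the CHO pools before PHx, 41.8. In the pools of 12 h the change of miR-106b was 0.31 in EtOH and 0.12 in CHO. For miR-93 at 12 h it was 0.43 in EtOH and 0.27 in CHO, and for miR-25 it was 0.27 in EtOH and 0.00055 in CHO. The EtOH array before PHx behind these 12 h changes is replicate 3, the array with the widest spot spread. At 1 h and 6 h the changes of the 3 members lay between -0.17 and 0.16. MiR-93 and miR-25 were above their own array in both EtOH pools at these times, and below it in the CHO pool of 1 h.

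**Figure D2:**
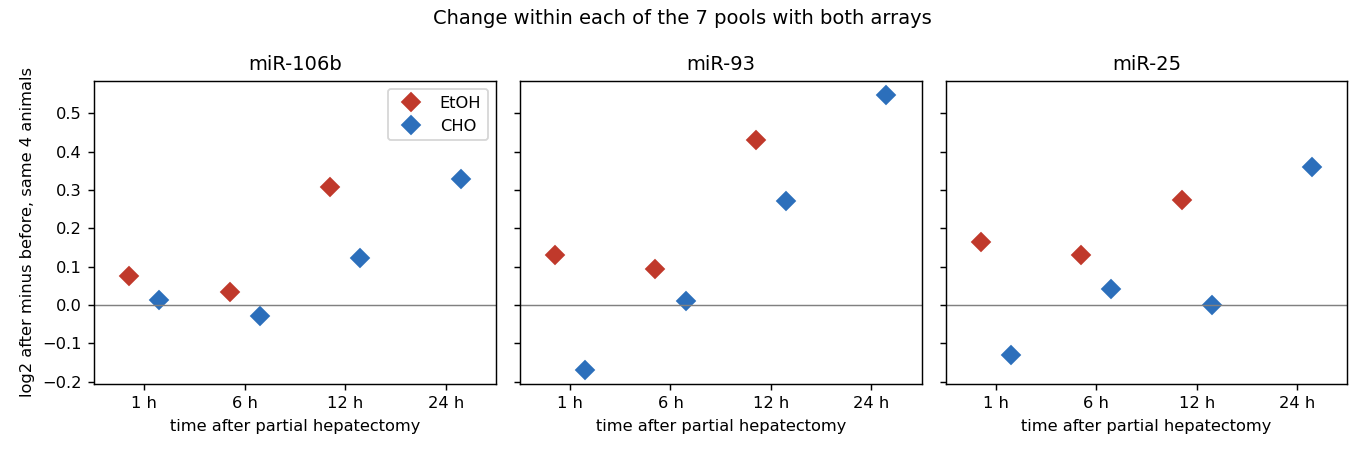
Log2 change of each member within each of the 7 pools that have arrays before and after PHx (vertical axis, after minus before in the same 4 animals) by time after PHx, EtOH in red and CHO in blue. Each point is 1 pool and has no error; the points of 1 h and 6 h stay between -0.17 and 0.16, and the CHO pool of 24 h is at 0.33 for miR-106b, 0.55 for miR-93 and 0.36 for miR-25.

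The earlier times ask when the change began. At 1 h after PHx 0 of 3 members passed, where 0% of the tested miRNAs did, and 0 members had an unadjusted p under 0.05. The log2 differences at 1 h were 0.02 for miR-106b, -0.06 for miR-93 and -0.01 for miR-25, each with a limma adjusted p of 0.980. At 6 h 0 of 3 members passed, beside 4.48% of the tested miRNAs, and 0 had an unadjusted p under 0.05. The differences at 6 h were 0.02 for miR-106b, 0.09 for miR-93 and 0.17 for miR-25.

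At 12 h 0 of 3 members passed, beside 5.97% of the tested miRNAs. MiR-93 read 73.4 in the EtOH pool and 79.6 in the CHO pool at 12 h, against 54.5 to 66.2 over the arrays before PHx. How many tested miRNAs stood in such an order at 12 h was not counted. Its log2 difference was 0.33 (95% interval 0.08 to 0.58) with an unadjusted p of 0.0148 and a limma adjusted p of 0.142. MiR-106b read 36.9 in EtOH and 38.3 in CHO at 12 h, inside its range before PHx, with a log2 difference of 0.14 (limma adjusted p 0.448). MiR-25 read 154 in EtOH and 149 in CHO, with a difference of 0.11 (limma adjusted p 0.778).

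The later times were also set against the earlier ones after PHx. MiR-106b and miR-93 rose in the 12 h and 24 h pools relative to the 1 h and 6 h pools, while 5.97% of the tested miRNAs passed as higher and 8.21% passed in either direction. MiR-106b read 36.9 and 44.7 in EtOH and 38.3 and 52.5 in CHO at 12 h and 24 h. It read 32.1 and 32.8 in EtOH and 37.3 and 36.3 in CHO at 1 h and 6 h. These ranges overlap, because the EtOH pool of 12 h lay below the CHO pool of 1 h. The log2 difference was 0.30 (SE 0.0702, 95% interval 0.15 to 0.46, limma adjusted p 0.0221).

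MiR-93 read 73.4 and 71.7 in EtOH and 79.6 and 96.8 in CHO at 12 h and 24 h, against 60.6 and 69.0 in EtOH and 56.0 and 60.5 in CHO at 1 h and 6 h. All 4 later arrays lay above all 4 earlier ones, as for 3.73% of the tested miRNAs. Its log2 difference was 0.38 (SE 0.101, 95% interval 0.16 to 0.60, limma adjusted p 0.0461). For miR-25 the difference was 0.08 (95% interval -0.16 to 0.31, limma adjusted p 0.782).

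The later pools were on slide 2 and the earlier on slide 1, so this comparison runs between slides. With slide as a block, which uses the arrays before PHx, the differences were 0.30 for miR-106b (limma adjusted p 0.355) and 0.37 for miR-93 (limma adjusted p 0.366). With the pool as a replicate block they were 0.27 (limma adjusted p 0.511) and 0.48 (limma adjusted p 0.127). Neither call remained, and no value within 1 slide exists. Without single arrays between 0 and 2 members passed, and 0 passed without either array of 1 h, the CHO array of 6 h, the EtOH array of 12 h or the CHO array of 24 h.

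**Figure D3:**
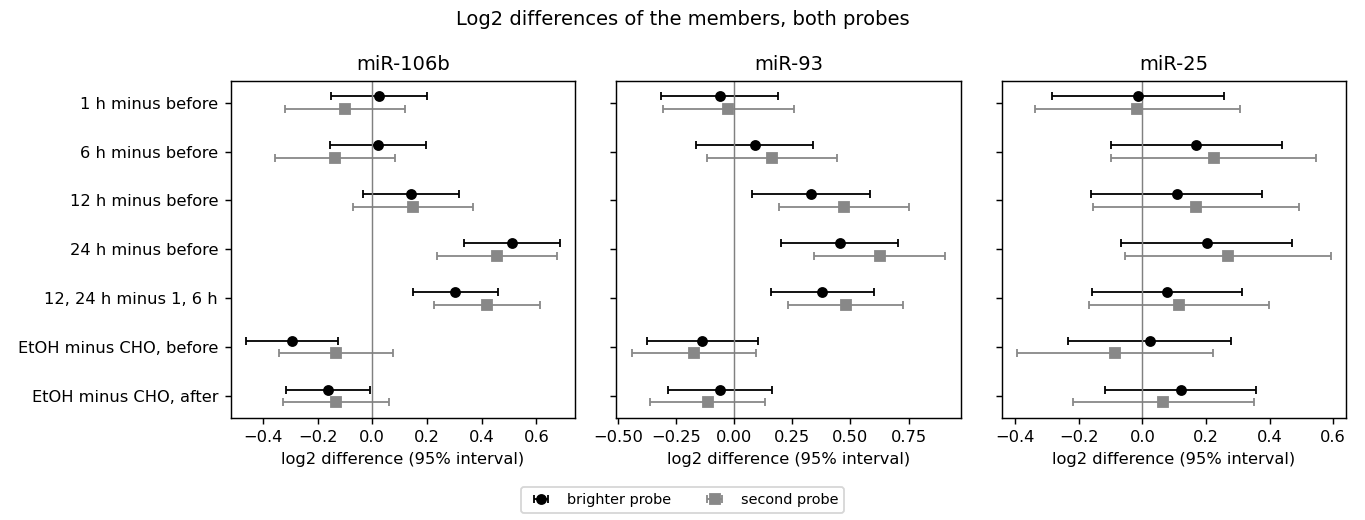
Log2 differences (horizontal axis) with 95% intervals of each member in 7 comparisons, from the brighter probe (black circles) and the second probe (grey squares). The intervals of miR-106b and miR-93 lie above 0 at 24 h and for 12 h and 24 h minus 1 h and 6 h on both probes, and the diet difference of miR-106b before PHx is -0.29 on the brighter and -0.13 on the second probe.

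The diets before PHx were compared to ask how long ethanol feeding left the cluster in the unoperated liver. MiR-106b fell in EtOH, and miR-93 and miR-25 did not pass. Among the tested miRNAs 12.7% passed as lower in EtOH and 15.7% passed in either direction, with a median difference over all of them of -0.08. MiR-106b averaged 30.8 ± 1.16 in EtOH (SD, n = 3) and 37.8 ± 2.84 in CHO (SD, n = 4). All 3 EtOH pools lay below all 4 CHO pools, as for 21.6% of the tested miRNAs. The log2 difference was -0.29 (SE 0.0759, 95% interval -0.46 to -0.13, limma adjusted p 0.0213), or a level of 0.816 relative to CHO with an interval of 0.727 to 0.916.

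MiR-93 averaged 58.2 ± 5.62 in EtOH (SD, n = 3) and 63.8 ± 2.93 in CHO (SD, n = 4), and the groups overlap. Its log2 difference was -0.14 (95% interval -0.38 to 0.10, limma adjusted p 0.450). MiR-25 averaged 143 ± 21.0 in EtOH (SD, n = 3) and 140 ± 7.14 in CHO (SD, n = 4). Its log2 difference was 0.02 (95% interval -0.23 to 0.28, limma adjusted p 0.973). The EtOH pools differed more among themselves in miR-25 than the CHO pools did, from 128 to 167 against 133 to 149.

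The fall of miR-106b was seen on 1 of its 2 probes. The second probe read 24.6, 23.6 and 26.4 in EtOH and 24.6, 27.3, 25.7 and 31.7 in CHO, and these groups overlap. Its log2 difference was -0.13 with a limma adjusted p of 0.422. Within slide 1 the brighter probe gave -0.25 (limma adjusted p 0.0441) and within slide 2 it gave -0.36 (limma adjusted p 0.279). Without EtOH before PHx replicate 1 the adjusted p by limma was 0.0537, and without CHO before PHx replicate 4 it was 0.0560. Without the dim array, EtOH before PHx replicate 3, the difference was -0.27 (limma adjusted p 0.0381). Blocking on matched pair-fed pools gave -0.24 (limma adjusted p 0.0564), and the authors' values gave -0.17 (limma adjusted p 0.248). With normexp on the median spot signal it was 0.18, the opposite sign.

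Array brightness moved with diet before PHx. The 75th percentile before scaling was 288, 410.5 and 236.5 on the EtOH arrays and 424, 426.6, 397 and 515.5 on the CHO arrays. MiR-106b before scaling was 22.3, 33.5 and 17.9 on the EtOH arrays and 39.9, 40.2, 35.5 and 54.8 on the CHO arrays. Without scaling its difference was -0.82, while the median over all tested miRNAs was -0.53. The part of brightness in the result was not tested.

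The summed markers of 4 other cell types were lower in all EtOH pools than in all CHO pools before PHx. Among single tested miRNAs 21.6% stood in that order. In summed scaled signal the leukocyte markers were at 137 to 153 in EtOH and 154 to 187 in CHO, over 3 tested of 5 listed. Of these 3, miR-142-3p differed by -0.50 in EtOH before PHx and passed (limma adjusted p 0.0435). MiR-150 differed by -0.38 (limma adjusted p 0.0534) and miR-223 by 0.03 (limma adjusted p 0.920), and neither passed. The epithelial markers were at 48.3 to 55.9 in EtOH and 66.6 to 83.0 in CHO, over 3 tested of 5 listed, with miR-141 and miR-200c detected on 0 arrays. The 5 stellate markers were at 525 to 594 in EtOH and 617 to 668 in CHO, and the endothelial miR-126 at 1034 to 1103 in EtOH and 1170 to 1263 in CHO. The hepatocyte and erythroid sums overlapped between the diets. The part of these cells in the difference of miR-106b was not tested, and fewer cells of a type cannot be told apart from less RNA per cell in whole liver. At 24 h the leukocyte sum was at 171 to 179, the epithelial sum at 60.8 to 62.9 and the endothelial miR-126 at 1186 to 1192. These 3 lay above all EtOH pools before PHx and, for leukocyte and endothelial markers, inside the range of the CHO pools before PHx, while the epithelial sum lay below all CHO pools. The stellate sum was at 543 to 581 at 24 h, inside the EtOH range and below the CHO range before PHx. The hepatocyte sum lay inside both ranges, and the erythroid sum was at 355 to 873 at 24 h against 618 to 1230 before PHx. Within the leukocyte list miR-223, a miRNA of myeloid cells, rose at 24 h by 0.60 on the log2 scale (limma adjusted p 0.00875), at 12 h by 0.92 and at 6 h by 0.67. MiR-142-3p differed by 0.08 and miR-150, a lymphocyte miRNA, by -0.37 at 24 h, and neither passed (limma adjusted p 0.810 and 0.0794). The part of these cells in the rise of miR-106b and miR-93 was not tested.

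After PHx the diet difference was fitted as 1 value over the 4 times. No member passed, 0 of 3 by limma beside 7.46% of the tested miRNAs. MiR-106b had a log2 difference of -0.16 (95% interval -0.32 to -0.01, unadjusted p 0.0407, limma adjusted p 0.152). Its EtOH pool lay below the CHO pool at each of the 4 times. The share of tested miRNAs in that order was not counted, and the median difference over all of them was -0.05. MiR-93 differed by -0.06 (95% interval -0.28 to 0.16, limma adjusted p 0.705) and miR-25 by 0.12 (95% interval -0.12 to 0.36, limma adjusted p 0.503). For miR-25 the EtOH pool was the higher at 1, 6 and 12 h and the lower at 24 h.

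Whether the diet difference changed with PHx was tested as an interaction. By limma 0 of 3 members passed, where 0% of the tested miRNAs did, and 0 members had an unadjusted p under 0.05. The diet difference after PHx minus that before PHx was 0.13 for miR-106b (95% interval -0.10 to 0.36), 0.08 for miR-93 (95% interval -0.25 to 0.40) and 0.10 for miR-25 (95% interval -0.25 to 0.45). Each interval includes 0 and also values past the size of the diet difference of miR-106b before PHx.

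Single times were read from a fit with a term for each of the 10 combinations of diet and time. It has 5 residual degrees of freedom, all from the pools before PHx, and a lone pool is assumed to vary like those. At 24 h miR-106b was 0.54 above EtOH before PHx in the EtOH pool (limma adjusted p 0.0350), where 7.46% of the tested miRNAs passed. In the CHO pool it was 0.48 above CHO before PHx (limma adjusted p 0.0503), where 5.22% passed. MiR-93 was 0.31 above in EtOH (limma adjusted p 0.265) and 0.60 above in CHO (limma adjusted p 0.0426). MiR-25 was 0.09 above in EtOH and 0.31 above in CHO (limma adjusted p 0.357). The calls differ by diet, but the test of that difference passed for 0% of the tested miRNAs. The diet difference at 24 h minus that before PHx was 0.06 for miR-106b, -0.30 for miR-93 and -0.22 for miR-25, with adjusted p by limma of 0.988, 0.902 and 0.988.

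At the earlier single times 0 members passed in either diet. The share of tested miRNAs that passed was 0% in EtOH and 0.746% in CHO at 1 h, 1.49% and 0.746% at 6 h, and 5.97% and 6.72% at 12 h. At 12 h miR-93 was 0.34 above in EtOH (unadjusted p 0.0249 by limma) and 0.32 above in CHO (unadjusted p 0.0277 by limma). MiR-106b at 12 h was 0.26 above EtOH before PHx in the EtOH pool (unadjusted p 0.0458 by limma) and 0.02 above CHO before PHx in the CHO pool. At 6 h miR-25 was 0.36 above in EtOH and -0.03 in CHO, with unadjusted p by limma of 0.0545 and 0.870.

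The diets were also set against each other at each time, where 0 members passed. The share of tested miRNAs that passed was 0.746% at 1 h, 0% at 6 h, 3.73% at 12 h and 0% at 24 h. MiR-106b differed by -0.22, -0.15, -0.05 and -0.23 at 1, 6, 12 and 24 h. MiR-93 differed by 0.11, 0.19, -0.12 and -0.43 at the same times, and the value at 24 h had an unadjusted p of 0.0213 and a limma adjusted p of 0.749. MiR-25 differed by 0.21, 0.41, 0.05 and -0.20, and the value at 6 h had a limma adjusted p of 0.354. MiR-106b was lower in EtOH at every time, and how many tested miRNAs were so was not counted. MiR-93 and miR-25 were higher in EtOH at 1 h and 6 h and lower at 24 h.

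**Figure D4:**
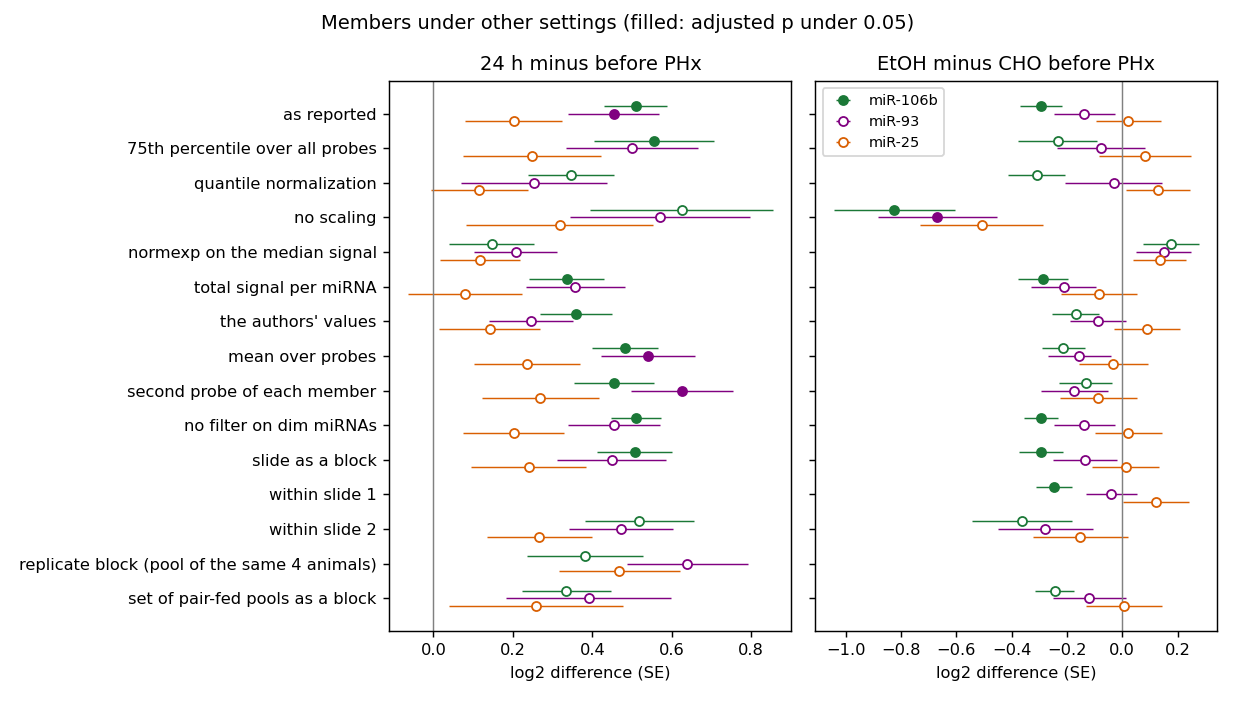
Log2 difference (horizontal axis, with the SE of the fit) of each member at 24 h minus before PHx (left) and in EtOH minus CHO before PHx (right) under each processing setting named on the vertical axis. Filled points have an adjusted p under 0.05; at 24 h the 3 members are above 0 in every setting drawn, and before PHx miR-106b is below 0 except with normexp (0.18). Some settings give no value for a comparison and have no points there.

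The members did not share 1 order of levels over the 10 groups. MiR-106b was lowest in EtOH before PHx (30.8), followed by the EtOH pools of 1 h (32.1) and 6 h (32.8). Each of these 3 groups differed from its neighbour among them by less than the SD between pools before PHx, 0.09 log2 units. The next 5 groups, from the CHO pool of 6 h (36.3) to that of 12 h (38.3), also differed from neighbour to neighbour by less than that SD. The EtOH pool of 24 h (44.7) and the CHO pool of 24 h (52.5) each stood above the group before by more than it. MiR-93 ran from the CHO pool of 1 h (56.0) to the CHO pool of 24 h (96.8), which stood 0.28 log2 units above its neighbour, the CHO pool of 12 h. MiR-25 ran from the CHO pool of 1 h (130) to the EtOH pool of 6 h (183). For miR-25, 8 of 9 neighbours differed by less than its SD of 0.14 log2 units.

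Over the 15 arrays the log2 signal of miR-106b followed that of miR-93 (Pearson r 0.755, Spearman rho 0.607). MiR-93 and miR-25 had an r of 0.697 and a rho of 0.789, and miR-106b and miR-25 an r of 0.237 and a rho of 0.157. The median r with all other tested miRNAs was 0.0639 for miR-106b, 0.169 for miR-93 and -0.0079 for miR-25. The 3 miRNAs most like miR-106b were miR-350 (r 0.927), miR-19a (0.908) and miR-20a (0.875). MiR-19a was detected on 11 of the 15 arrays, and its lowest signal was set to the floor. Those most like miR-93 were miR-17 (r 0.839), miR-361 (0.818) and miR-345-5p (0.791). Those most like miR-25 were miR-15b (r 0.851), miR-425 (0.750) and miR-361 (0.719). These values describe the 15 arrays, which share their scaling and the slides.

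The miR-17 cluster is a paralogue of the Mcm7 cluster. Its miR-17 and miR-20a carry the seed of miR-106b and miR-93, and its miR-92a that of miR-25, while miR-18a, miR-19a and miR-19b carry neither. Of its 6 miRNAs, 5 were tested and miR-18a was detected on 0 arrays. At 24 h 4 of the 5 rose, beside the 2 of 3 in the Mcm7 cluster and 11.9% of the tested miRNAs. These were miR-17 (0.68), miR-20a (0.65), miR-19a (0.90) and miR-19b (0.59), with limma adjusted p between 6.94e-05 and 0.0150. MiR-19a was dim, detected on 11 of 15 arrays, and its lowest scaled signal, 8.73, lay below the floor of 9.61. The size of its differences thus depends on the floor. With the pool as a replicate block 0 of the 134 tested miRNAs passed at 24 h, so these calls were lost too. With normexp 1 of the 5 passed, miR-20a (0.47, limma adjusted p 0.00449). MiR-92a, which has the seed of miR-25, differed by -0.07 (limma adjusted p 0.753). So in the fit as reported miR-106b, miR-93, miR-17 and miR-20a, the tested carriers of the first seed, all rose at 24 h. Of the second seed neither miR-25 nor miR-92a passed. The rise was not particular to the first seed, since miR-19a and miR-19b carry neither. Close sequences of 1 seed may also share signal on the array, which was not tested. At 12 h miR-17 (0.57) and miR-20a (0.50) passed as higher, each with a limma adjusted p of 0.000633. The 12 h differences of miR-93 (0.33) and miR-106b (0.14) did not pass. The calls of miR-17 and miR-20a at 12 h were also lost with the replicate block.

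Before PHx 4 of the 5 tested miRNAs of the miR-17 cluster fell in EtOH, where 12.7% of the tested miRNAs passed as lower, with a list median of -0.57 against -0.08 over all tested miRNAs. The log2 differences were -0.63 in miR-20a, -0.26 in miR-17, -0.57 in miR-19a, which was near the floor, and -0.69 in miR-19b. MiR-92a, at -0.25, did not pass (limma adjusted p 0.0962). With normexp miR-17 was at 0.10 and miR-19a at 0.26, the opposite sign, and within slide 2 0 of the 5 passed. The median of the Mcm7 cluster was -0.14. Differences between the clusters were not tested. Of the other carriers of these seeds, miR-20b-5p, miR-363, miR-92b and miR-32 were detected on 0 of 15 arrays.

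**Figure D5:**
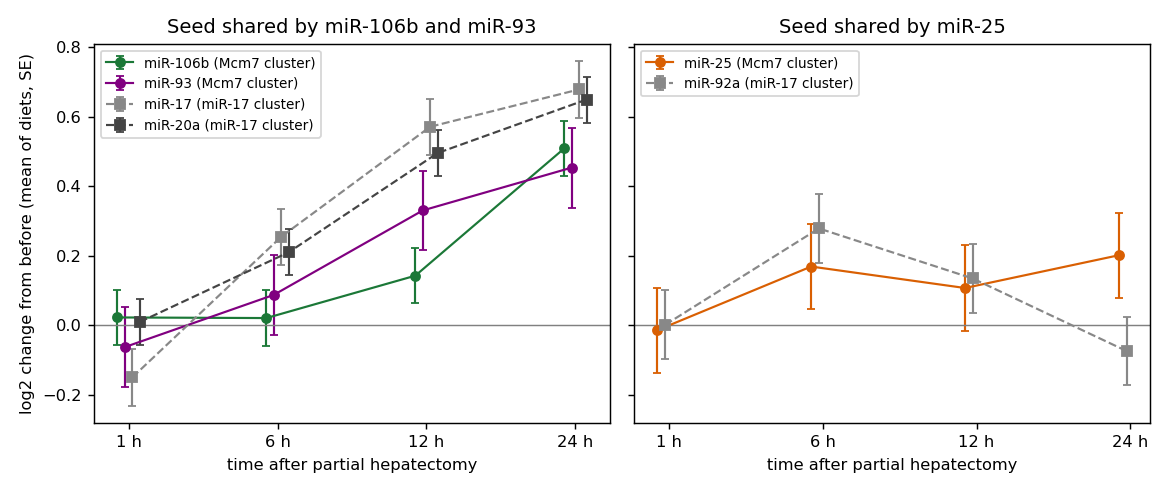
Log2 change from before PHx (mean of both diets, with the SE of the fit) at 1, 6, 12 and 24 h, evenly spaced, for the detected miRNAs with the seed of miR-106b and miR-93 (left) and with that of miR-25 (right). Coloured solid lines are the Mcm7 cluster and grey dashed lines the miR-17 cluster; at 24 h the 4 miRNAs on the left are between 0.45 and 0.68, and those on the right are at 0.20 (miR-25) and -0.07 (miR-92a).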

How the data were processed

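Total RNA of pooled rat liver was labelled with Cy3 and hybridised to 15 arrays, per the labels' protocols. The authors deposited linear spot intensity values, from which Agilent Feature Extraction had subtracted the background, per the file headers. Its version is 10.5.1.1 in those headers and 10.7.3.1 in the submitters' processing notes. A table of log2 values, 1 per miRNA and array, was also deposited by the authors and served as an alternative. The sources used here do not say how it was normalized, scaled or centred. Its columns had medians of 0.106 to 1.10. Within an array, its rank correlation with the software's total signal was 0.930 to 0.967 across miRNAs.

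Control spots and the 2503 spots (2.38%) with a non-uniformity or population outlier mark were dropped, and 1 saturated spot was kept. Mean probe signals were scaled so that the 75th percentile of the 185 probes (of 938) detected on all arrays was equal between arrays. It was then floored at 9.61 (3.26 in log2) and log2 was taken. A probe was detected where a share of at least 0.5 of its spots was well above background. Each miRNA was represented by its brightest probe on average, and the 134 miRNAs detected on at least 3 arrays were tested, which left 216 untested.

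Contrasts were fitted to the 15 arrays together by lmFit and eBayes of limma 3.58.1 under R 4.3.3. The model has a diet term for livers before PHx, another for livers after PHx and a term per time, leaving 8 residual degrees of freedom. P-values were adjusted by Benjamini-Hochberg over the 134 tested miRNAs. They rest on the spread among the pools before PHx and on how far single pools after PHx departed from 1 shared diet difference. A diet difference that changes with time would thus count as spread. Tested on simulated data with 134 miRNAs, the fit recovered 9 of 16 changes of 0.5 log2 units and 8 of 8 of 1 log2 unit for diet before PHx, and 10 of 16 and 7 of 8 at 24 h, with 0 false calls. The simulated noise was independent between arrays, with no shared animals, slides or differences in brightness. The simulation therefore cannot show how the fit behaves where arrays share these. The number of arrays limits the precision. Sequences and positions are RefSeq's, matched by miRNA name.

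The members and lists were chosen with earlier results of these data known. Named are the members, the other strands of their hairpins, the paralogous clusters, the carriers of their seeds and, for each member, the 3 miRNAs with the highest Pearson r. Arrays before and after PHx of 1 pool are paired by the animals the labels list. The correlation of their residuals across miRNAs lay between -0.10 and 0.24. Alternatives changed the scaling, the background correction, the signal per miRNA, the probe, the filter, the floor, the blocks, the model and the arrays used. Normexp was run on the median spot signal, since the mean spot signal was not used here, and, like the second probe of each member, was chosen after seeing the data.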

Additional observations from a re-analysis of the deposited data

How the results depend on the processing

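Of 744 alternative values of the members' 24 differences, 64 had the opposite sign, 0 of these past the threshold. A further 62 kept the sign and lost a call, and 1 gained one. Only differences that passed as reported could lose a call, so most of the 744 could not. The normexp value of miR-106b for diet before PHx, counted as opposite in sign, did not pass either. For 12 h and 24 h against 1 h and 6 h, miR-106b passed in 15 of 30 alternatives and miR-93 in 10 of 30. Causes were not tested. The rise of miR-106b at 24 h kept its sign in 31 of 31 alternatives and passed in 25, with values between 0.15 (normexp) and 0.62 (no scaling) against 0.51. It passed in 10 of 16 settings and in 15 of 15 fits without 1 array. The rise of miR-93 at 24 h kept its sign in 31 and passed in 19, with values between 0.21 and 0.70 against 0.45. It passed in only 5 of 16 settings, and in 14 of 15 fits without 1 array. The fall of miR-106b in EtOH before PHx kept its sign in 30 of 31 and passed in 21. It passed in 8 of 16 settings and in 13 of 15 fits without 1 array. Leaving out an array taken after PHx left the difference at -0.29, so those fits could not change its sign. Members called before PHx by diet (1 as reported) were 0 with the 75th percentile over all probes, quantile normalization, normexp, the authors' values, the mean over probes, the second probe, within slide 2 and a block for the pair-fed pools, and 2 without scaling, where miR-93 was at -0.67 (limma adjusted p 0.0167). Members called at 24 h (2) were 1 with that percentile, the total signal per miRNA, the authors' values, no filter and slide as a block, and 0 with quantile normalization, no scaling, normexp, within slide 2, the replicate block and the pair-fed block. Members called for 12 h and 24 h against 1 h and 6 h (2) were 1 with no filter and 0 with that percentile, quantile normalization, no scaling, normexp, total signal, the authors' values and the slide, replicate and pair-fed blocks. Without single arrays they were 0 to 1, 1 to 2 and 0 to 2 in these comparisons. The replicate block (the pool of the same 4 animals) could be fitted for the times and the interaction, not for diet, which does not vary within a pool, and it changed no other call of a member.

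Values with the opposite sign follow by setting. With the all-probe percentile miR-106b was at -0.00010 at 1 h, -0.11 at 6 h, -0.068 at 12 h and 0.088 for diet after PHx, miR-93 at -0.047 at 6 h and 0.19 for diet after PHx, and miR-25 at -0.10 at 12 h. With quantile normalization miR-106b was at -0.013 at 1 h, -0.14 at 6 h, -0.037 at 12 h and 0.037 for diet after PHx, miR-93 at -0.084 at 6 h and 0.11 for diet after PHx, and miR-25 at -0.051 at 12 h and -0.027 for late minus early. With normexp miR-106b was at 0.18 and miR-93 at 0.15 for diet before PHx, miR-106b at -0.10 at 1 h and -0.059 at 12 h, and the interactions of miR-106b, miR-93 and miR-25 at -0.22, -0.17 and -0.028. In the authors' values miR-106b was at -0.046 at 1 h, -0.25 at 6 h and -0.13 at 12 h, miR-93 at 0.058 for diet after PHx, and miR-25 at 0.019 at 1 h, -0.073 at 12 h and -0.044 for late minus early. With total signal miR-106b was at -0.00057 at 1 h and -0.019 at 6 h, and miR-25 at -0.084 for diet before PHx, 0.014 at 1 h and -0.00062 for late minus early. Without scaling miR-106b was at -0.014 at 6 h, miR-93 at 0.15 at 1 h, and miR-25 at 0.20 at 1 h and -0.51 for diet before PHx. With the mean over probes miR-106b was at -0.038 at 1 h and -0.058 at 6 h and miR-25 at -0.032 for diet before PHx. With the second probe these were -0.10, -0.14 and -0.086. With the replicate and the pair-fed block miR-25 was at 0.016 at 1 h. Within slide 1 miR-93 was at 0.15 for diet after PHx. Within slide 2 miR-25 was at -0.072 for diet after and -0.15 for diet before PHx. Without single arrays the ranges that crossed 0 were -0.015 to 0.061 for miR-106b, -0.18 to 0.055 for miR-93 and -0.076 to 0.049 for miR-25 at 1 h. At 6 h they were -0.080 to 0.26 for miR-93 and -0.025 to 0.36 for miR-25. For miR-25 they were -0.0086 to 0.41 at 24 h, -0.028 to 0.18 for late minus early and -0.094 to 0.099 for diet before PHx. For miR-93 they were -0.15 to 0.062 for diet after PHx and -0.0085 to 0.20 for the interaction.

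The settings also moved the median of all tested miRNAs. For diet before PHx the median was between -0.53 (no scaling) and 0.20 (normexp), against -0.08 as reported, and at 24 h between -0.10 (total signal) and 0.13 (no scaling), against 0.02. For diet after PHx it was between -0.06 and 0.19, at 1 h between -0.07 (normexp) and 0.20 (no scaling), at 6 h between -0.05 and 0.09, at 12 h between -0.12 and 0.26, and for the interaction between -0.20 (normexp) and 0.56 (no scaling). Of the 5 tested miRNAs of the miR-17 cluster 4 passed at 24 h as reported and 0 to 4 under these settings, and 4 before PHx by diet, against 0 to 5. Over all tested miRNAs 21 passed for diet before PHx as reported and 1 (within slide 2) to 76 (no scaling) under these settings. At 24 h 18 passed, against 0 (replicate block) to 24 (total signal). For late minus early 11 passed, against 0 to 14, for diet after PHx 10, against 0 to 27, at 12 h 8, against 1 to 13, and at 6 h 6, against 0 to 14. At 1 h 0 passed, against 0 to 1, and for the interaction 0, against 0 to 2. Each time after PHx has 1 pool per diet, so spread between pools there was not measured.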

Other observations

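The authors' deposited value table gave the members on its own log2 scale. MiR-106b was at 5.67 in EtOH and 5.81 in CHO at 24 h, and between 5.16 and 5.67 over the 7 arrays before PHx. In the authors' deposited table miR-93 was at 5.97 in EtOH and 6.24 in CHO at 24 h, and between 5.67 and 5.99 before PHx. The EtOH pool of 24 h thus equalled the highest array before PHx for miR-106b and lay inside the range before PHx for miR-93, while the CHO pool lay above all of them for both. In the authors' deposited table miR-106b before PHx was at 5.36, 5.36 and 5.16 in EtOH and at 5.46, 5.36, 5.36 and 5.67 in CHO, with the same value on several arrays. Distinct values make up 4.44% of the values in that table.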
